A study of Mus musculus with 26 samples.

Results

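EA1 and EA2 are murine lung cancer cell lines driven by the EML4-ALK fusion, in which the front part of Eml4 is joined to the kinase part of the receptor tyrosine kinase Alk. Both were grown out of tumors of C57BL/6 mice. EA1 came from an animal with wild-type Trp53, whereas EA2 came from a Trp53-null animal and was made in another laboratory. In this model the fusion is made in the lung by an adenovirus that carries Cas9 and guides against Eml4 and Alk. The 2 lines were compared without drug, in 8 of the 26 libraries of the series, chosen by their labels. Cells of either line had been kept in 0.1% DMSO, the solvent of the ALK inhibitor alectinib, for 1, 2, 3 or 5 days, with 1 RNA sequencing library per line and day (4 against 4). Each group is thus a single line, and what separates them cannot be told apart from what separates their mice, their laboratories or their Trp53 state.

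Levels are CPM, a gene's counts as a share of its library's total on a common scale, adjusted with edgeR's TMM factors, and values of 4 libraries are given in the order of days 1, 2, 3 and 5. Total counts ran from 8698143 to 10243224 in EA1 and from 6799764 to 11026517 in EA2. At these depths a count of 0 allows a level of up to 0.251 to 0.431 CPM in a library (3 counts, counting error only). Every log2 fold change is EA2 over EA1, with its standard error (SE) and its adjusted p from edgeR's quasi-likelihood test with day as a block and Benjamini-Hochberg adjustment over the 11903 genes tested. A gene is called where the adjusted p is under 0.05. A mean ± SD is over the 4 libraries of a line. For every called gene whose values follow, the libraries of 1 line lay wholly above those of the other unless an overlap is stated. Genes on the X and Y chromosomes were left out. As the 4 libraries of a line differ in day, and day is a term of the fit, the p-values rest on how far the difference between the lines varied from day to day in 1 culture series, not on the spread between independently derived lines.

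Epithelial cells of the lung are known by their surfactant, secretory, ciliary or basal genes, and the surfactant-making alveolar type 2 cell depends on the transcription factor Nkx2-1. Lung tumors that lose Nkx2-1 are known to take up gut and gastric genes under Hnf4a. Sheets of epithelium are held together by E-cadherin (Cdh1), claudins, desmosomes and keratins, and stand on laminins that bind integrins such as Itgb4. Mesenchymal factors such as Twist1, Prrx1 and Zeb1 are known to weaken these contacts.

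The 2 lines were far apart without drug. Of 11903 genes tested, 2095 (17.6%) were higher and 2212 (18.6%) were lower in EA2, and 97.7% of the called genes had 1 sign on all 4 days. Pearson correlations of log2 CPM lay between 0.93 and 0.98 within a line and between 0.763 and 0.831 between lines, and the first principal component, with 74.1% of the variance, separated the lines. A fold of at least 2 held for 1337 of the higher and 1234 of the lower genes. Scaling by library size alone gave 2726 higher and 1553 lower genes, so that 63.7% of calls were higher in place of 48.6%, and moved the median log2 fold change of all genes from -0.0041 to 0.1747.

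**Figure D1:**
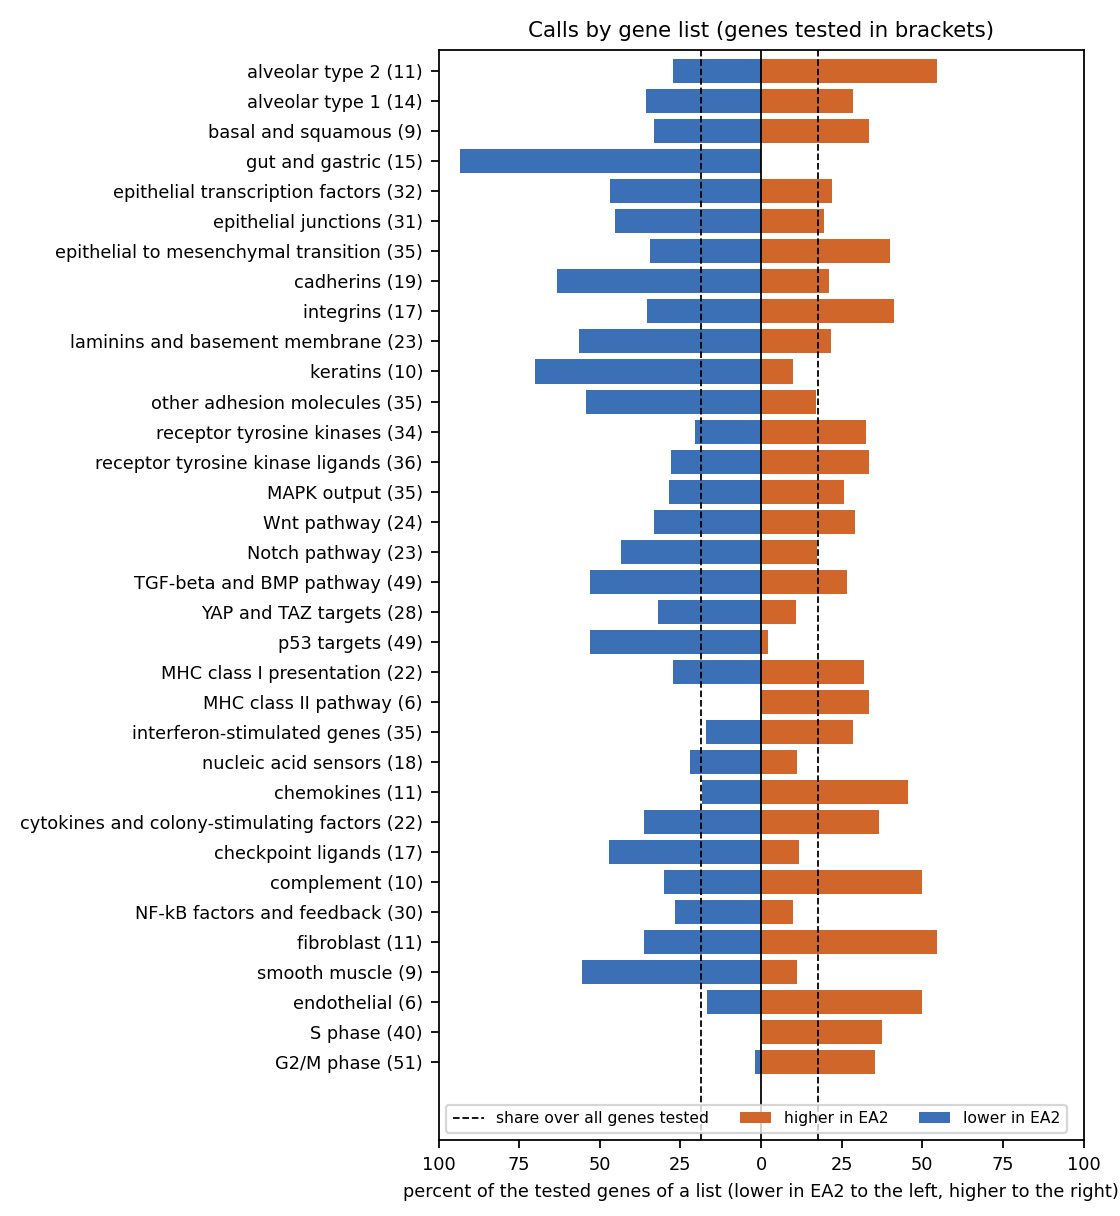
Share of the tested genes of each gene list that were called lower (blue, to the left) or higher (orange, to the right) in untreated EA2 than in EA1, in percent, for lists with at least 6 genes tested. Dashed lines mark the shares over all genes tested, 18.6% lower and 17.6% higher; gut and gastric genes (93.3%), keratins (70.0%) and cadherins (63.2%) reach farthest to the left.

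The genes of the driver and of Trp53 were read first. Alk, the kinase part of the fusion, lay at 76.8, 80.8, 73.9 and 58.5 CPM in EA1 and at 106, 99.4, 135 and 131 CPM in EA2 (log2 fold change 0.70, SE 0.19, adjusted p = 0.0189), and the call was lost without day 5 (0.57, adjusted p = 0.0641). Eml4, its fusion partner, lay at 53, 40.5, 52.8 and 38.5 CPM and at 117, 106, 104 and 122 CPM (log2 fold change 1.29, SE 0.17, adjusted p = 0.000629). Both genes were thus read in every library of both lines, and each was higher in EA2 on all 4 days. Counts per gene do not show the fusion itself. Trp53, the tumor suppressor that EA2 is described to lack, lay at 218, 182, 194 and 92 CPM in EA1 and still at 81.9, 76.9, 51.1 and 76.4 CPM in EA2 (log2 fold change -1.22, SE 0.26, adjusted p = 0.00656). The lines did not overlap, although the EA1 library of day 5 came near to EA2. In EA3, which the study also derived from a Trp53-null mouse, untreated libraries held 3.77 to 7.37 CPM. A count per gene does not tell which exons were read, so that an intact transcript and one of a disrupted allele cannot be told apart.

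Across the 4 themes of lineage, adhesion, signalling and immunity, 660 listed genes were tested, of which 157 (23.8%) were higher and 250 (37.9%) lower in EA2, with a median log2 fold change of -0.30. Adhesion lists held 40 higher and 81 lower of 165 genes tested (24.2% and 49.1%), and lineage lists 22 and 41 of 93 (23.7% and 44.1%). Signalling lists held 58 and 105 of 270 (21.5% and 38.9%), and immune lists 44 and 43 of 166 (26.5% and 25.9%). Over all genes tested the shares were 17.6% higher and 18.6% lower, and every list count below is to be read beside them. A gene may stand in more than 1 list.

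Several defining markers of the lung epithelial cell types were at or near 0 in both lines, and others were read. Nkx2-1, the master factor of distal lung, had no count in any of the 8 libraries, and neither had Hopx of alveolar type 1 cells or Krt5 of basal cells. Sftpc, the surfactant protein of alveolar type 2 cells, had 1 count in all, in EA1 on day 5, and Scgb1a1 of club cells had 2, in EA2. Insm1, a zinc finger factor of neuroendocrine cells, was read in both, at 22.3, 18.2, 22.2 and 20.9 CPM in EA1 and at 11.5, 12.6, 20.5 and 13.6 CPM in EA2, and was not called (log2 fold change -0.55, SE 0.21, adjusted p = 0.0704). Of the genes of the alveolar type 2 list that were tested, 6 of 11 were higher and 3 lower in EA2 (median 0.75), and its members went both ways. Fabp5, a fatty acid carrier, lay at 8.45, 4.74, 1.76 and 3.29 CPM in EA1 and at 91.6, 129, 38.3 and 74.4 CPM in EA2 (log2 fold change 4.25, SE 0.27, adjusted p = 8.62e-06). Abca3, which loads surfactant lipid into lamellar bodies, went the other way, with 38.5, 38.7, 29.8 and 54.4 CPM in EA1 and 5.73, 5.17, 6.67 and 6.11 CPM in EA2 (log2 fold change -2.74, SE 0.23, adjusted p = 4.31e-05). Of 14 alveolar type 1 genes tested 4 were higher and 5 lower (3 lower without day 2, day 3 or day 5), among them the water channel Aqp5 at 55.2 ± 28.7 CPM in EA1 and 158 ± 38.6 CPM in EA2 (mean ± SD, n = 4, log2 fold change 1.64, SE 0.20, adjusted p = 0.000344). Of the club, ciliated, basal and neuroendocrine lists only 4, 4, 9 and 4 genes were tested, with 1, 0, 3 and 1 higher and 0, 0, 3 and 1 lower in EA2. Without day 1, 3 or 5 the club list had 1 lower gene (2 by DESeq2's Wald test over all days), and without day 3 the neuroendocrine list had 2. Pdpn, a surface glycoprotein of alveolar type 1 cells, had 1 count in EA1 and 4.74, 7.62, 8.63 and 6.87 CPM in EA2 (243-fold higher in EA2, 95% interval 43.2 to 9618, adjusted p = 9.29e-05), where the fold is that of counts pooled over the 4 libraries of a line and the interval covers counting error only.

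Gut and gastric genes had the largest share of calls among the lists with at least 6 genes tested. Of 45 listed genes found, 15 were tested. Of these, 14 were lower in EA2, none was higher, and the median log2 fold change was -3.75, beside -0.0041 over all genes. With at least 10 counts in every library 6 were tested and all 6 were lower, so that the rest of the 14 had under 10 counts in at least 1 library. Hnf4a, a nuclear receptor of gut and liver epithelium at chr2:163506808-163572910 (mm10), lay at 249.9, 185, 52.8 and 65.4 CPM in EA1 and at 2.51, 3.02, 1.76 and 2.18 CPM in EA2 (log2 fold change -5.63, SE 0.34, adjusted p = 6.9e-06). Its level in EA1 was higher on days 1 and 2 than on days 3 and 5, and the lowest EA1 library stood far above the highest EA2 library. Cdx2, the homeobox factor of the intestine, lay at 133, 145, 40.4 and 59.6 CPM and at 25.8, 26.3, 18.7 and 17.2 CPM (log2 fold change -1.94, SE 0.25, adjusted p = 0.000489). Cdh17, the intestinal cadherin, lay at 688, 560.5, 629.8 and 507 CPM and at 18.3, 22.1, 14.0 and 14.7 CPM (log2 fold change -5.12, SE 0.22, adjusted p = 1.27e-06). Of the 3, Cdx2 kept the most in EA2. Gata4, a zinc finger factor of foregut and heart, lay at 18.5, 19.4, 14.2 and 16.6 CPM in EA1 and had 2 counts in EA2 (346-fold higher in EA1, 95% interval 95.5 to 2866, adjusted p = 3.65e-05). Hnf4g, the paralog of Hnf4a, stood at 4.65 ± 0.665 CPM in EA1 with 1 count in EA2 (187-fold higher in EA1, 95% interval 33.0 to 7413, adjusted p = 0.000142). Krt20, a keratin of gut lining, lay at 26.3, 33.4, 18.8 and 50.9 CPM and at 0.895, 1.58, 5.29 and 2.60 CPM (log2 fold change -3.75, SE 0.49, adjusted p = 0.000557). Untreated EA3 libraries held 18.9 to 53.1 CPM of Hnf4a, 24.2 to 44.5 CPM of Cdx2 and 78.1 to 122 CPM of Cdh17.

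Promoters of 2 genes of this group are printed, and both hold the letters searched below. The letters were chosen because the group holds Gata4, and whether Gata4 acts on these genes was not tested. RefSeq windows of 300 bases (GRCm38.p6, the build of mm10), from 250 before to 50 after a start, existed for 7 of the 15 genes tested, with 8 starts. The letters AGATAA, a word that GATA factors are known to bind, were searched on both strands (reverse complement TTATCT). They stood in 3 of the 8 windows, those of Muc6, Krt20 and 1 of the Hnf4a starts, and in 11.2% of 32817 windows of all genes. Capitals mark the match in the 2 windows printed. The Hnf4a window is chr2:163506607-163506906, plus strand, and counts per gene do not show which start was used. The Krt20 window is chr11:99438104-99438403, minus strand. A match is a run of letters and not a measured binding site.
Hnf4a: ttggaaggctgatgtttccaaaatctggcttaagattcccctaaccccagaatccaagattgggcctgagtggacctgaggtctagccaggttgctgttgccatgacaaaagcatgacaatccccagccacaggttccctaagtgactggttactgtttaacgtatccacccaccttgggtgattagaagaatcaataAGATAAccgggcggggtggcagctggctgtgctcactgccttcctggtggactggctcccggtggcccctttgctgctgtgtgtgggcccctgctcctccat
Krt20: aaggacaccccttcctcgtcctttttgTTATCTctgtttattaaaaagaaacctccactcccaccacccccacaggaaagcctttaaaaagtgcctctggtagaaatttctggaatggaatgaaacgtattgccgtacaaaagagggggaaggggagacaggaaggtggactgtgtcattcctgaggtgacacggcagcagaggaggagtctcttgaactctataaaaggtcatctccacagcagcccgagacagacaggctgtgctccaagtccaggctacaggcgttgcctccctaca

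Among other epithelial transcription factors, 7 of 32 tested were higher and 15 lower in EA2 (median -0.63). Irx2 and Irx1, Iroquois homeobox genes on chromosome 13 known from developing lung epithelium, were read in EA1 and not in EA2. Irx2 lay at 78.6, 75.7, 81.7 and 109 CPM in EA1 with no count in EA2, which is at least 1147-fold higher in EA1 (3 counts over the 4 libraries as floor, adjusted p = 1.43e-05). Irx1 lay at 21.6, 22.3, 19.7 and 28.8 CPM in EA1, again with no count in EA2 (at least 307-fold, adjusted p = 7.98e-05). Untreated EA3 libraries held 13.4 to 29.3 CPM of Irx2 and 0.646 to 1.88 CPM of Irx1. Foxf1, a forkhead factor of lung mesenchyme, lay at 58.7, 45.2, 31.6 and 59.4 CPM in EA1 and at 0.0895, 0.144, 0 and 0.251 CPM in EA2 (log2 fold change -8.52, SE 0.37, adjusted p = 1.39e-06). All 3 were near absent from EA2 on every day. Sox2, a factor of proximal airway and stem cells, ran the other way, with 13.8, 11.3, 11.8 and 62.2 CPM in EA1 and 70.3, 68.4, 131 and 107 CPM in EA2 (log2 fold change 2.29, SE 0.39, adjusted p = 0.00233). All 4 EA2 libraries lay above EA1, whose day 5 library was its highest. Six4, a homeobox factor, lay at 2.69 ± 0.644 CPM in EA1 and 20.1 ± 1.40 CPM in EA2 (log2 fold change 2.91, SE 0.26, adjusted p = 6.49e-05). Grhl2, which keeps epithelial junction genes on, had low levels, 0.313, 0.113, 0 and 0 CPM in EA1 and 2.95, 2.87, 6.37 and 4.10 CPM in EA2 (log2 fold change 5.00, SE 0.77, adjusted p = 0.00136). Pitx1, a homeobox factor of the basal and squamous list, had no count in EA1 and lay at 11.0, 8.91, 6.37 and 8.21 CPM in EA2 (at least 102-fold, adjusted p = 0.000465). Foxa1, a pioneer factor of endoderm, differed little, with 82.7 ± 20.4 CPM in EA1 and 124 ± 9.55 CPM in EA2 (log2 fold change 0.61, SE 0.19, adjusted p = 0.033), and the call was lost without day 1, 2 or 5 (adjusted p from 0.0642 to 0.0891).

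**Figure D2:**
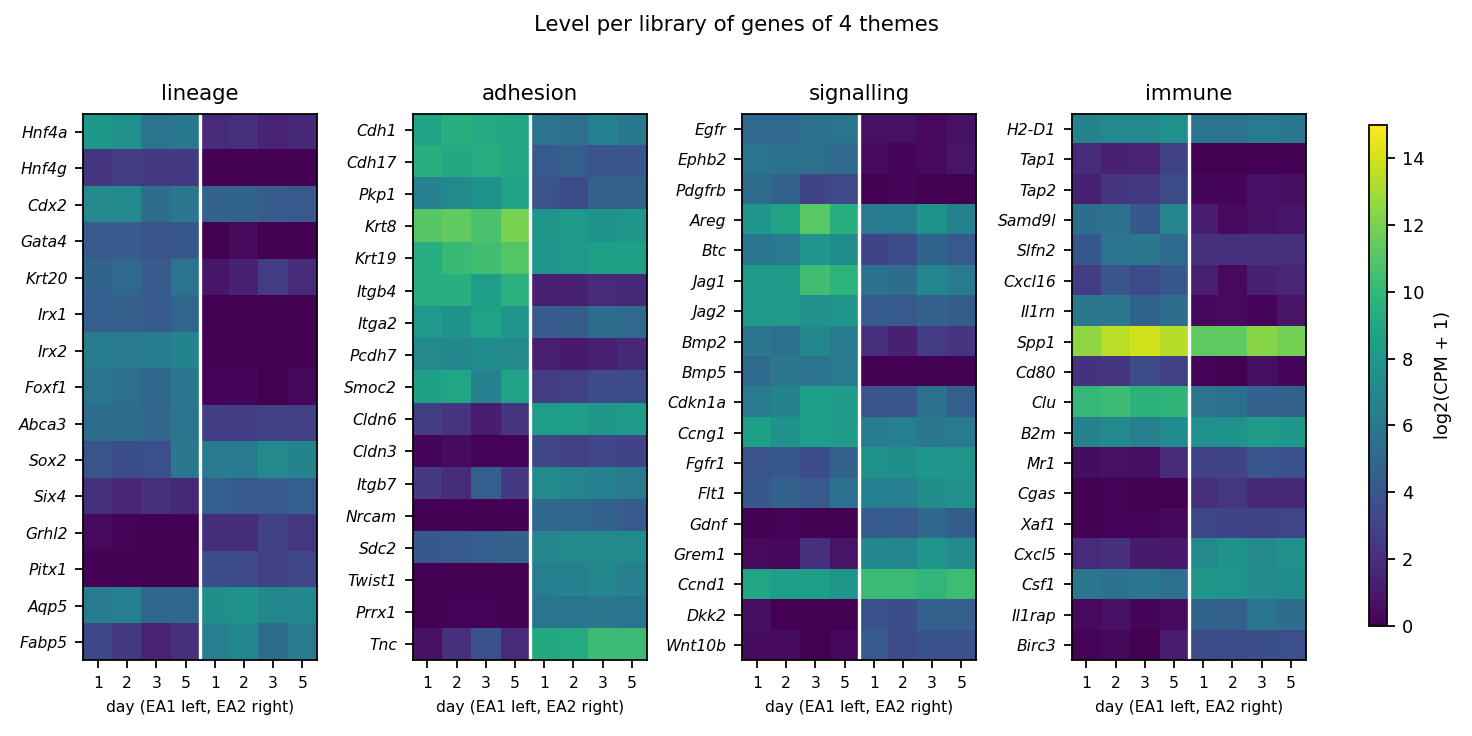
Level of 68 genes in the 8 untreated libraries as log2(CPM + 1), in 4 panels for lineage, adhesion, signalling and immune genes. Columns are days 1, 2, 3 and 5 of EA1 (left of the white line) and of EA2 (right), and brighter cells are higher levels; most rows change colour at the line and little along the days.

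More genes of epithelial contacts were lower than higher in EA2. Of 31 junction genes tested, 14 were lower and 6 higher in EA2 (median -0.70). Cdh1, which makes E-cadherin at chr8:106603351-106670246, lay at 428, 692, 576 and 506 CPM in EA1 and at 52.3, 43.4, 94.8 and 65.4 CPM in EA2 (log2 fold change -3.14, SE 0.25, adjusted p = 3.7e-05). The lines did not overlap, and EA2 kept reads of Cdh1 on every day. Pkp1, a desmosome plaque protein, lay at 97.8, 142, 198 and 404 CPM and at 13.4, 9.34, 23.9 and 23.4 CPM (log2 fold change -3.48, SE 0.26, adjusted p = 2.22e-05). Cldn6, a tight junction claudin of embryonic epithelium at chr17:23679249-23682446, went the other way, with 5.64, 4.06, 1.21 and 3.93 CPM in EA1 and 337, 340.4, 245 and 312 CPM in EA2 (log2 fold change 6.46, SE 0.30, adjusted p = 1.89e-06). Cldn3, another claudin, lay at 0.209, 0.338, 0.11 and 0.127 CPM and at 8.05, 6.18, 8.33 and 7.20 CPM (log2 fold change 5.15, SE 0.49, adjusted p = 9.21e-05). Both claudins were thus higher in EA2, as were 4 other members, among them Cgn, of the tight junction plaque, and Dsp, another desmosome plaque gene, named after its values were seen (log2 fold change 1.07). Plaque genes thus went both ways. Epcam, an adhesion molecule common to epithelia, was low in both lines, at 1.46, 3.27, 0.331 and 0.38 CPM in EA1 and 0.626, 0.431, 0.294 and 0.586 CPM in EA2, and did not pass the filter on low counts. In untreated EA3 it stood at 73.7 to 209.5 CPM, and Cdh1 at 583 to 686 CPM.

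Keratins, the intermediate filaments of epithelium, were lower in EA2 for 7 of 10 tested and higher for 1, Krt10, a call lost when any 1 day was left out (median -2.35). With at least 10 counts in every library 4 of 7 were lower. Krt8 lay at 2199.5, 2579, 1741 and 4087 CPM in EA1 and at 247, 285, 211 and 248 CPM in EA2 (log2 fold change -3.35, SE 0.24, adjusted p = 1.72e-05). Krt19 lay at 662, 1133, 1429.6 and 2024 CPM and at 215, 271, 371 and 363 CPM (log2 fold change -2.03, SE 0.20, adjusted p = 0.000121). Krt18, the filament partner of Krt8, did not follow it, with 1332, 1842, 1816 and 2453 CPM in EA1 and 1294, 1622, 1959 and 1459.7 CPM in EA2 (log2 fold change -0.22, SE 0.20, adjusted p = 0.439). The 2 lines overlapped for Krt18, so that partners of 1 filament differed in how far the lines were apart. Krt7, a keratin of simple epithelium that also stands in the alveolar type 1 list, lay at 43.7, 52.5, 25.9 and 57.3 CPM in EA1 and at 0.268, 0.144, 0.098 and 0.335 CPM in EA2 (log2 fold change -7.59, SE 0.29, adjusted p = 9.13e-07).

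Cadherins were lower in EA2 for 12 of 19 tested and higher for 4 (median -1.01). With at least 10 counts in every library 7 of 11 were lower and 2 higher. Pcdh7, a protocadherin, lay at 134, 128, 155 and 131 CPM in EA1 and at 1.52, 1.01, 1.47 and 2.18 CPM in EA2 (log2 fold change -6.45, SE 0.24, adjusted p = 8.79e-07). Fat2, a giant cadherin of migrating epithelium, lay at 0.104, 0.338, 0.11 and 0.253 CPM and at 14.4, 16.7, 13.6 and 16.8 CPM (log2 fold change 6.20, SE 0.40, adjusted p = 1.04e-05). Cdh2, N-cadherin, differed less, with 132, 87.8, 67.3 and 72.4 CPM in EA1 and 167, 155, 99.7 and 124 CPM in EA2 (log2 fold change 0.63, SE 0.16, adjusted p = 0.0149), the lines overlapped, and the call was lost without the day block (adjusted p = 0.0858) or without day 2 (0.0798).

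Mesenchymal genes were split. Of 35 genes of the epithelial to mesenchymal transition list tested, 14 were higher and 12 lower in EA2 (median -0.09). Twist1, a basic helix-loop-helix factor of mesenchyme at chr12:33957671-33959829, had no count in any EA1 library and lay at 88.7, 96.1, 124 and 90.0 CPM in EA2 (at least 1172-fold higher, adjusted p = 1.34e-05). Prrx1, a homeobox factor of limb and wound mesenchyme, had 2 counts in EA1 and lay at 56.0, 53.7, 61.1 and 56.9 CPM in EA2 (1012-fold higher in EA2, 95% interval 279.9 to 8364, adjusted p = 1.21e-06). Both factors were also read in untreated EA3, at 27.7 to 52.4 CPM and 32.9 to 90.1 CPM. Among other transcription factors of the list, Twist2 and Foxc2 were called lower in EA2 and Tcf4 higher, so that its factors went both ways. Tnc, the matrix protein tenascin C, lay at 0.626, 3.27, 12.9 and 2.66 CPM in EA1 and at 559, 587, 1256 and 1270.1 CPM in EA2 (log2 fold change 7.93, SE 0.52, adjusted p = 1.13e-05). On the other side, Igfbp7, a secreted binding protein, lay at 356, 779, 358 and 779.8 CPM and at 6.17, 6.61, 9.41 and 9.13 CPM (log2 fold change -6.08, SE 0.31, adjusted p = 3.12e-06). Fn1, fibronectin, was abundant in both, with 4356, 7417, 23019 and 18394 CPM in EA1 and 3063, 3138, 5409 and 6463 CPM in EA2 (log2 fold change -1.34, SE 0.28, adjusted p = 0.00622), and the lines overlapped, with EA1 on day 1 below EA2 on days 3 and 5. Vim, the mesenchymal filament vimentin, was high in both lines and not called, with 3445, 3609.9, 1535 and 6477 CPM in EA1 and 3097, 3327, 3179 and 2969 CPM in EA2 (log2 fold change -0.09, SE 0.33, adjusted p = 0.846). Zeb1, a repressor of Cdh1, was not called either, with 46.7, 46.9, 53.2 and 48.9 CPM and 39.2, 33.6, 49.1 and 43.6 CPM (log2 fold change -0.25, SE 0.16, adjusted p = 0.249).

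**Figure D3:**
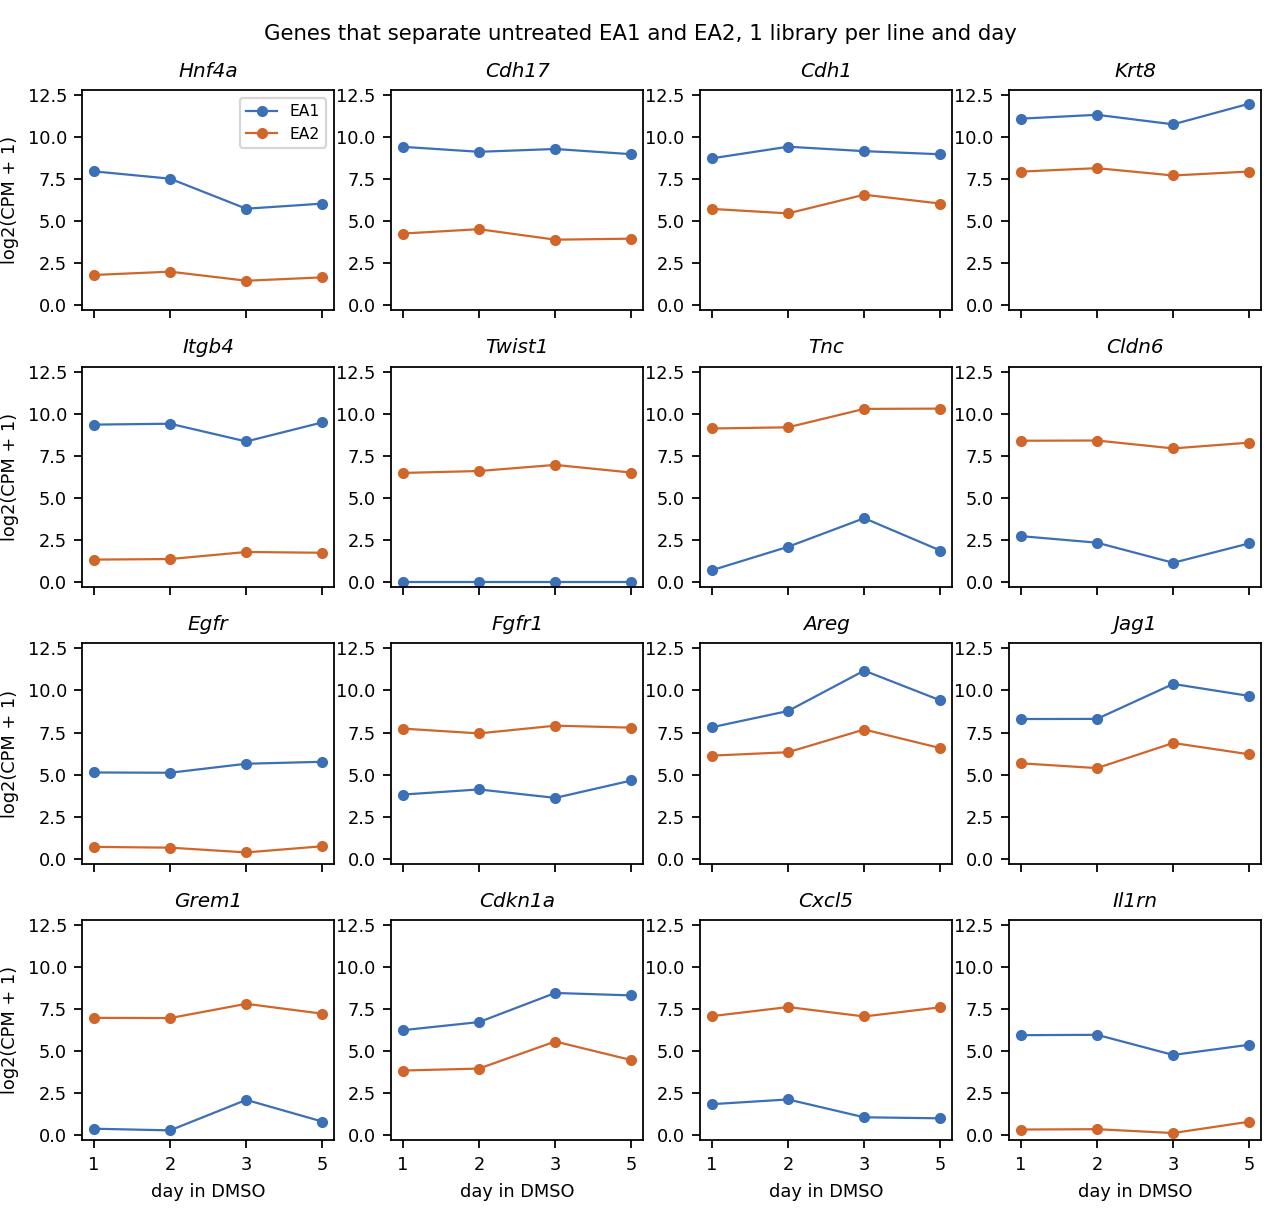
Level of 16 genes as log2(CPM + 1) against day in DMSO (days evenly spaced), 1 library per point, EA1 in blue and EA2 in orange. The lines do not cross in any panel; Twist1 has no count in EA1, and Areg, Jag1 and Cdkn1a are higher on day 3 than on day 1 in both lines.

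The contact with matrix differed as well. Integrins, the receptors of matrix proteins, were higher in EA2 for 7 of 17 tested and lower for 6 (median -0.24). With at least 10 counts in every library 3 of 12 were higher and 5 lower. Itgb4, which binds laminin in hemidesmosomes, lay at 656, 681, 327 and 719.8 CPM in EA1 and at 1.52, 1.58, 2.45 and 2.34 CPM in EA2 (log2 fold change -8.16, SE 0.35, adjusted p = 1.38e-06). Itga2, a collagen receptor chain, lay at 260.2, 204, 416 and 223 CPM and at 19.2, 20.3, 38.9 and 33.3 CPM (log2 fold change -3.31, SE 0.21, adjusted p = 8.58e-06). Itgb1, the beta chain shared by most of these receptors, was lower by less, with 1565, 1627, 1878 and 2343 CPM and 797, 872, 1009.8 and 974 CPM (log2 fold change -1.01, SE 0.18, adjusted p = 0.0027). Itgb7, better known from homing lymphocytes, was higher in EA2, with 4.70, 2.93, 21.7 and 4.94 CPM in EA1 and 140.0, 114, 96.6 and 75.9 CPM in EA2 (log2 fold change 4.01, SE 0.49, adjusted p = 0.000419). Genes of the laminins and basement membrane were lower for 13 of 23 tested and higher for 5 (median -0.90). Smoc2, a matricellular calcium-binding protein, lay at 389, 451, 99.0 and 393 CPM and at 5.46, 6.04, 10.2 and 9.29 CPM (log2 fold change -5.27, SE 0.50, adjusted p = 0.000103). Of other adhesion molecules, 19 of 35 tested were lower (12 without day 2) and 6 higher (median -0.66).

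Within that list the neural adhesion genes went both ways. Nrcam, of the L1 family, had no count in EA1 and lay at 32.8, 31.9, 25.5 and 19.6 CPM in EA2 (at least 317-fold, adjusted p = 6.33e-05). Ncam1 lay at 48.8, 78.9, 114 and 171 CPM in EA1 and at 9.04, 6.90, 8.92 and 11.8 CPM in EA2 (log2 fold change -3.37, SE 0.26, adjusted p = 3.28e-05). Neither gene's lines overlapped. Sdc2, a heparan sulfate proteoglycan, lay at 16.5, 19.9, 21.7 and 25.5 CPM and at 115, 141, 144 and 144 CPM (log2 fold change 2.71, SE 0.16, adjusted p = 6.9e-06).

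Receptor tyrosine kinases, the family to which Alk belongs, were higher in EA2 for 11 of 34 tested and lower for 7 (median 0.19). Egfr, the epidermal growth factor receptor at chr11:16752203-16918158, lay at 33.9, 33.5, 49.0 and 53.2 CPM in EA1 and at 0.626, 0.575, 0.294 and 0.67 CPM in EA2 (log2 fold change -6.26, SE 0.31, adjusted p = 2.19e-06). Fgfr1, a fibroblast growth factor receptor at chr8:25513654-25575718, lay at 13.0, 16.4, 11.2 and 24.1 CPM and at 212, 174, 239 and 221 CPM (log2 fold change 3.75, SE 0.24, adjusted p = 1.07e-05). These receptors thus stood in opposite order in the 2 lines, each without overlap on any day. Flt1, a receptor of vascular endothelial growth factor, lay at 16.8, 24.8, 18.3 and 43.3 CPM and at 96.2, 93.4, 167 and 188 CPM (log2 fold change 2.43, SE 0.23, adjusted p = 0.000105). Ephb2, a receptor of ephrins, lay at 52.6, 50.1, 45.4 and 34.2 CPM and at 0.358, 0.144, 0.294 and 0.754 CPM (log2 fold change -6.72, SE 0.39, adjusted p = 5.84e-06). Pdgfrb, a platelet-derived growth factor receptor, lay at 38.0, 23.8, 7.16 and 8.87 CPM in EA1 and had 1 count in EA2 (808-fold higher in EA1, 95% interval 144 to 31943, adjusted p = 1.03e-05). Met, the receptor of hepatocyte growth factor, was close in the lines, with 84.3 ± 26.2 CPM and 129.8 ± 19.7 CPM (mean ± SD, n = 4, log2 fold change 0.65, SE 0.17, adjusted p = 0.0185). The lines overlapped for Met, and its call was lost without day 2 or 5 (adjusted p = 0.0881 and 0.0628) or without the day block (0.0542).

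Ligands of these receptors were higher in EA2 for 12 of 36 tested and lower for 10 (6 lower without day 5, median 0.07). With at least 10 counts in every library 7 of 25 were higher and 8 lower. Areg, amphiregulin, a ligand of Egfr, lay at 224, 439, 2322 and 680.4 CPM in EA1 and at 68.9, 79.5, 204 and 94.2 CPM in EA2 (log2 fold change -2.64, SE 0.29, adjusted p = 0.000238). Btc, betacellulin, a ligand of the same receptor, lay at 57.4, 73.3, 223 and 159 CPM and at 7.16, 10.6, 27.4 and 16.9 CPM (log2 fold change -3.02, SE 0.17, adjusted p = 5.14e-06). Both ligands were thus lower in the line in which their receptor was near the floor. Hbegf, a further ligand of Egfr, did not share this, with 71.0, 100.4, 215 and 166 CPM and 137, 132, 295 and 139 CPM (log2 fold change 0.39, SE 0.21, adjusted p = 0.174), and was called higher only without day 5 (adjusted p = 0.0452). Of the other Egfr ligands tested, Ereg was called lower in EA2. Tgfa was not called, with means of 49.9 CPM in EA1 and 49.6 CPM in EA2 (log2 fold change -0.01, SE 0.16, adjusted p = 0.978). Gdnf, the ligand of the Ret receptor complex, had 1 count in EA1 and lay at 19.3, 17.5, 30.6 and 20.5 CPM in EA2 (787-fold higher in EA2, 95% interval 141 to 31112, adjusted p = 7.35e-06). Nrg1, a ligand of Erbb3 and Erbb4, lay at 11.1, 8.91, 12.5 and 15.3 CPM and at 33.2, 27.7, 22.8 and 24.3 CPM (log2 fold change 1.19, SE 0.23, adjusted p = 0.0048).

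Genes that follow MAPK signalling, the pathway below Alk, were higher in EA2 for 9 of 35 tested and lower for 10 (6 lower without day 2, median -0.10). Dusp6, an ERK phosphatase, lay at 187, 245, 172 and 146 CPM in EA1 and at 256, 309, 396 and 325 CPM in EA2 (log2 fold change 0.78, SE 0.20, adjusted p = 0.0167), and lost its call without day 5 (adjusted p = 0.0611). Etv5, an ETS factor induced by ERK, lay at 78.7, 72.3, 85.2 and 53.5 CPM and at 109, 115, 129 and 127 CPM (log2 fold change 0.75, SE 0.18, adjusted p = 0.0115). Etv4, its relative, lay at 75.6 ± 14.6 CPM and 118 ± 9.92 CPM (log2 fold change 0.66, SE 0.19, adjusted p = 0.0253), and lost its call without day 2, 3 or 5 (adjusted p from 0.0532 to 0.074). These genes were less than 2-fold apart. Fosl1, an AP-1 subunit, lay at 15.6, 15.2, 36.0 and 35.1 CPM and at 52.0, 45.3, 62.3 and 39.2 CPM (log2 fold change 1.06, SE 0.27, adjusted p = 0.0168), with calls lost without day 1 or 2 (adjusted p = 0.0614 and 0.0607). Ccnd1, the cyclin of G1 phase, lay at 454, 321, 334 and 246 CPM and at 1199.6, 1195, 929.7 and 1272 CPM (log2 fold change 1.79, SE 0.22, adjusted p = 0.000352). Spry4, a feedback inhibitor, was lower in EA2, with 50.7, 58.7, 101 and 61.3 CPM and 27.5, 26.4, 84.8 and 38.4 CPM (log2 fold change -0.73, SE 0.19, adjusted p = 0.0167), but the lines overlapped and the call was lost without the day block (adjusted p = 0.244), with library size alone (0.07), with EA3 in the fit (0.0607) or without day 1, 2 or 5 (0.0523 to 0.112).

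Notch genes were lower in EA2 for 10 of 23 tested (4 to 6 without day 1, 2 or 5, and 4 with library size alone) and higher for 4 (median -0.43). The ligands Jag1 and Jag2 led them. Jag1 lay at 315, 317, 1339 and 817 CPM in EA1 and at 49.9, 40.8, 117 and 72.8 CPM in EA2 (log2 fold change -3.16, SE 0.21, adjusted p = 1.3e-05). Jag2 lay at 262, 261, 188 and 237 CPM and at 19.5, 17.4, 24.8 and 20.2 CPM (log2 fold change -3.53, SE 0.21, adjusted p = 6.72e-06). Hes1, a repressor that Notch induces, lay at 71.3, 104, 59.8 and 118 CPM and at 20.4, 21.3, 40.9 and 25.6 CPM (log2 fold change -1.72, SE 0.29, adjusted p = 0.0023). Dll4, another ligand, was low but higher in EA2, with 0, 0, 0.11 and 0.507 CPM and 2.59, 2.87, 6.37 and 2.93 CPM (log2 fold change 4.61, SE 0.78, adjusted p = 0.00218).

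Genes of the TGF-beta and BMP pathway, which pattern and restrain epithelium, were lower in EA2 for 26 of 49 tested and higher for 13 (median -0.62). With at least 10 counts in every library 6 of 36 were higher. Among ligands, Bmp2 lay at 61.9, 45.6, 126 and 74.9 CPM in EA1 and at 3.31, 1.58, 5.10 and 3.94 CPM in EA2 (log2 fold change -4.45, SE 0.21, adjusted p = 1.86e-06). Bmp5 lay at 36.5, 61.4, 51.0 and 68.9 CPM in EA1 and had 1 count in EA2 (2162-fold higher in EA1, 95% interval 388 to 85452, adjusted p = 9.13e-07). Tgfb1 lay at 197, 273, 194 and 258 CPM and at 82.4, 74.9, 134 and 129 CPM (log2 fold change -1.16, SE 0.22, adjusted p = 0.00414). These 3 ligands were lower in EA2, but others of the list were called higher, namely Bmp4 (log2 fold change 1.76), Bmp6 (4.09), Bmp7 (2.75), Tgfb3 (2.00) and Gdf11 (1.88), so that the ligands went both ways. Of these 5, all but Bmp4 were named after their values were seen. Tgfb2 was near the floor and higher in EA2, with 0.522, 0.451, 0.441 and 0.253 CPM and 2.33, 2.44, 1.86 and 2.01 CPM (log2 fold change 2.34, SE 0.45, adjusted p = 0.0044). Among antagonists, Grem1, which binds BMP ligands, lay at 0.313, 0.226, 3.31 and 0.76 CPM in EA1 and at 126, 124, 225 and 149 CPM in EA2 (log2 fold change 7.33, SE 0.43, adjusted p = 6.72e-06). Lefty1, an inhibitor of Nodal, lay at 0.417, 0.451, 0.551 and 1.52 CPM and at 12.7, 16.1, 18.1 and 15.9 CPM (log2 fold change 4.49, SE 0.40, adjusted p = 6.43e-05). Chrd, another BMP antagonist, named after its values were seen, was called lower in EA2, so that antagonists went both ways too.

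Wnt genes, which hold and renew stem cells of many epithelia, went both ways, with 7 of 24 tested higher and 8 lower in EA2 (median 0.04). With at least 10 counts in every library 2 of 18 were higher, so that most of the 7 passed the filter through EA2, and 3 of the 8 lower genes were at least 2-fold apart. Dkk2, a secreted Wnt modulator, had 0.522, 0, 0 and 0 CPM in EA1 and 13.0, 10.9, 23.1 and 23.5 CPM in EA2 (log2 fold change 6.85, SE 0.74, adjusted p = 0.00021). Wnt10b, a ligand, had 0.417, 0.338, 0 and 0.253 CPM and 18.8, 9.91, 12.6 and 12.1 CPM (log2 fold change 5.68, SE 0.52, adjusted p = 7.14e-05). Tcf7l1, a DNA-binding partner of beta-catenin, ran the other way, with 7.20, 9.93, 4.63 and 13.9 CPM and 1.16, 0.718, 0.98 and 1.26 CPM (log2 fold change -3.00, SE 0.40, adjusted p = 0.000576). Of 28 YAP and TAZ targets tested, 9 were lower and 3 higher (median -0.04). These shares were 32.1% and 10.7%, beside 18.6% and 17.6% over all genes. Ccn2, a matricellular target, lay at 102, 102, 63.1 and 167 CPM and at 51.8, 37.4, 13.2 and 24.8 CPM (log2 fold change -1.85, SE 0.29, adjusted p = 0.00149). Ankrd1, another target, lay at 44.9, 68.9, 187 and 87.7 CPM and at 214, 235, 211 and 207 CPM (log2 fold change 1.36, SE 0.31, adjusted p = 0.00991). Ccn1, of the same family as Ccn2, was not called, with 109, 144, 76.2 and 137 CPM and 129.9, 142, 99.2 and 81.5 CPM (log2 fold change -0.03, SE 0.21, adjusted p = 0.919). Well-known targets of 1 pathway thus differed in direction.

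Targets of p53 were lower in EA2 for 26 of 49 tested and higher for 1 (median -0.81). Cdkn1a, the cell cycle inhibitor p21, lay at 75.1, 105, 352 and 318 CPM in EA1 and at 13.4, 14.7, 46.8 and 21.2 CPM in EA2 (log2 fold change -3.04, SE 0.25, adjusted p = 4.33e-05). Mdm2, the ligase that restrains p53, lay at 122, 116, 398 and 404 CPM and at 65.1, 68.5, 103 and 60.4 CPM (log2 fold change -1.59, SE 0.32, adjusted p = 0.00569). In EA1 both stood well above days 1 and 2 on days 3 and 5. Ccng1, cyclin G1, lay at 361, 197, 339.9 and 302 CPM and at 79.8, 89.1, 60.9 and 71.2 CPM (log2 fold change -1.98, SE 0.23, adjusted p = 0.000328). Plk2, a polo-like kinase, was the member higher in EA2, with 19.6, 17.1, 76.3 and 37.3 CPM and 154, 175, 156 and 115 CPM (log2 fold change 2.23, SE 0.38, adjusted p = 0.00228). The median log2 ratio of the list was -0.62, -0.71, -0.92 and -1.04 on days 1, 2, 3 and 5.

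Genes of the cell cycle moved with day as well as with line, and stand beside all of the comparisons above. Of 40 S phase genes tested 15 were higher in EA2 and none lower. Of 51 G2/M phase genes 18 were higher and 1 lower. The median log2 ratio of the G2/M list was -0.21, 0.53, 0.99 and 1.38 on days 1, 2, 3 and 5, and that of the S phase list was 0.02, 0.75, 0.51 and 1.26. On day 1 the ratio was above 0 for 14 of the 51 G2/M genes. In the median gene of the G2/M list, EA1 went from 7.31 on day 1 to 5.37 on day 5 on the log2(CPM + 1) scale, and EA2 from 7.01 to 6.66. Cdk1, the mitotic kinase, lay at 209, 136, 52.0 and 63.5 CPM in EA1 and at 229, 249, 161 and 185 CPM in EA2 (log2 fold change 1.04, SE 0.26, adjusted p = 0.0136), the lines overlapped, and it lost its call without day 5 (adjusted p = 0.0604) or without the day block (0.128). Mki67, which marks cycling cells, lay at 1144, 554, 218 and 226 CPM and at 519.9, 490.1, 276 and 498 CPM (log2 fold change 0.04, SE 0.33, adjusted p = 0.933). Without the day block, 5 S phase and 2 G2/M genes were higher. The G2/M count was 33 without day 1, 7 without day 2, 9 without day 3 and 7 without day 5, and the S phase count was 8 without day 2 or 5 and 23 with library size alone. With no filter on low counts the G2/M count was 31 and the S phase count 25. Without day 3 the G2/M list had 2 lower genes. The part of cycling in the other differences was not tested.

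**Figure D4:**
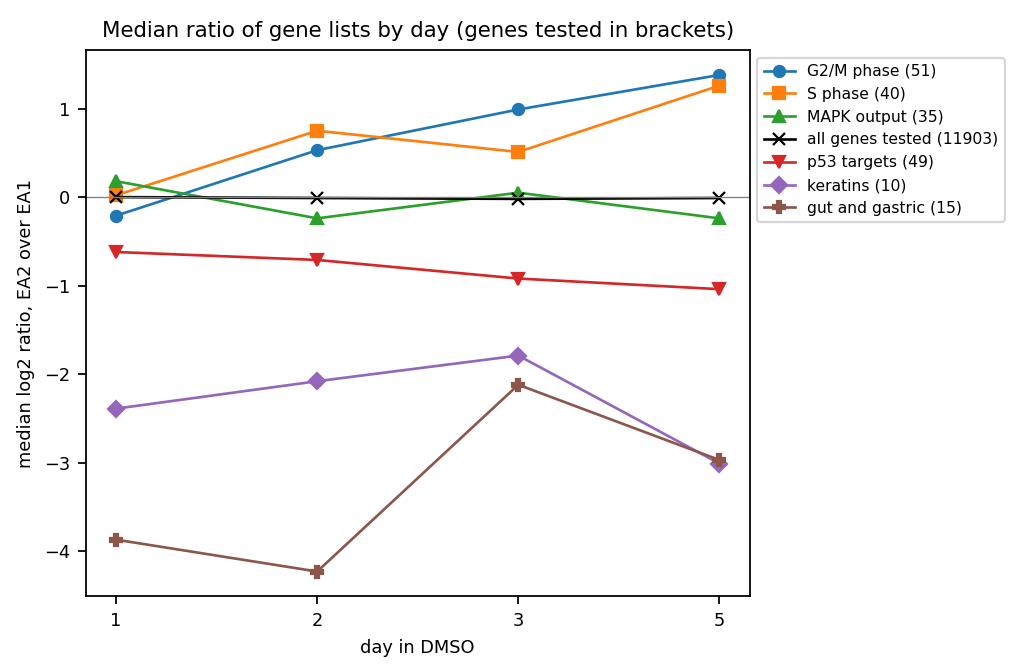
Median log2 ratio of EA2 over EA1 (log2 CPM, prior count 2) over the tested genes of 6 lists and over all genes tested, against day in DMSO (days evenly spaced). The G2/M list goes from -0.21 to 1.38 and the p53 target list from -0.62 to -1.04, while all genes stay between -0.02 and 0 and gut and gastric genes between -4.23 and -2.12.

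Genes that present antigen on MHC class I were split, with 7 of 22 tested higher and 6 lower in EA2 (median 0.07). With at least 10 counts in every library only 2 of 17 were lower. B2m, the light chain, lay at 101, 133, 93.2 and 159 CPM in EA1 and at 185, 203, 295 and 259 CPM in EA2 (log2 fold change 0.96, SE 0.20, adjusted p = 0.00692). H2-D1, a heavy chain, lay at 104, 134, 142 and 185 CPM and at 54.9, 53.7, 73.8 and 63.6 CPM (log2 fold change -1.18, SE 0.17, adjusted p = 0.000934). H2-K1, the other classical heavy chain, lay at 16.4, 39.6, 52.6 and 130.0 CPM and at 15.3, 16.5, 39.5 and 29.6 CPM (log2 fold change -0.98, SE 0.32, adjusted p = 0.0426), the lines overlapped, and the call was lost without the day block (adjusted p = 0.111), with library size alone (0.0872), with at least 10 counts in every library (0.0581) or without day 2, 3 or 5 (0.0512 to 0.157). Heavy chain genes are near-identical in sequence, so that their counts are uncertain. Tap1 and Tap2 form the peptide pump of the endoplasmic reticulum. Tap1 lay at 2.71, 1.58, 1.65 and 6.59 CPM in EA1 and had 1 count in EA2 (122-fold higher in EA1, 95% interval 21.4 to 4852, adjusted p = 0.000207). Tap2 lay at 1.46, 3.84, 4.41 and 10.1 CPM and at 0.179, 0.144, 0.686 and 0.502 CPM (log2 fold change -3.57, SE 0.51, adjusted p = 0.000836). The light chain was thus higher in EA2, while H2-D1 and both pump genes were lower. The other 6 members called higher included Nlrc5, the class I transactivator, and Psmb10, and the class I chains H2-T22, H2-T23, H2-T24 and H2-M3, named after their values were seen, were not called (log2 fold changes from -0.71 to 0.75). Of the MHC class II list, 2 of 6 tested were higher, Rfx5 and Lgmn, and the chains H2-Aa and H2-Ab1 had no count in any library.

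Interferon-stimulated genes were higher in EA2 for 10 of 35 tested and lower for 6 (median 0.06). Xaf1, a partner of caspase inhibitors, lay at 0, 0.113, 0.11 and 0.253 CPM in EA1 and at 8.59, 7.04, 7.16 and 7.70 CPM in EA2 (log2 fold change 5.92, SE 0.58, adjusted p = 0.00012). Samd9l, an antiviral gene, lay at 42.5, 47.5, 16.8 and 114 CPM and at 1.34, 0.287, 0.588 and 0.837 CPM (log2 fold change -5.95, SE 0.43, adjusted p = 1.99e-05). Slfn2, a schlafen, lay at 16.3, 52.9, 61.6 and 36.9 CPM and at 3.13, 3.30, 3.33 and 3.10 CPM (log2 fold change -3.54, SE 0.32, adjusted p = 7.5e-05). Single members were far apart in both directions while the median of the list was near 0. Of 18 sensors of nucleic acids tested, 11.1% were higher and 22.2% lower, near the shares over all genes (17.6% and 18.6%). In number, 2 were higher (1 without day 5) and 4 lower (1 or 2 lower without day 1, 2 or 5, median 0.24). Those higher were Cgas, the sensor of cytosolic DNA, with 1 count in EA1 and 3.31, 4.17, 2.35 and 2.34 CPM in EA2 (104-fold higher in EA2, 95% interval 18.3 to 4132, adjusted p = 0.000318), and its adaptor Tmem173 (STING). Tmem173 lay at 22.9, 31, 13.4 and 10.3 CPM and at 35.6, 38.1, 43.5 and 36.3 CPM (log2 fold change 1.10, SE 0.28, adjusted p = 0.0165), with calls lost without day 3 or 5 (adjusted p = 0.0567 and 0.0673).

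Most chemokines were hardly read in either line: 11 of 38 listed were tested, of which 5 were higher and 2 lower in EA2 (1 lower without day 2 or 5 or without the day block, median 1.24). With at least 10 counts in every library 4 were tested and 0 were higher, so that each of the 5 had under 10 counts in at least 1 library. Cxcl5, which attracts neutrophils, lay at 2.61, 3.38, 1.10 and 1.01 CPM in EA1 and at 135, 197, 133 and 195 CPM in EA2 (log2 fold change 6.37, SE 0.33, adjusted p = 3.36e-06). Cxcl1, of the same kind, was lower in EA2, with 20.7, 94.4, 48.7 and 108 CPM and 16.6, 32.3, 38.4 and 36.4 CPM (log2 fold change -0.95, SE 0.26, adjusted p = 0.0228), but the lines overlapped and the call was lost without the day block (adjusted p = 0.0837), with library size alone (0.0595) or without day 2 or 5 (0.111 and 0.106). Cxcl16, the ligand of Cxcr6, lay at 5.32, 15.0, 9.37 and 16.3 CPM and at 1.43, 0.287, 1.57 and 2.09 CPM (log2 fold change -2.99, SE 0.51, adjusted p = 0.00234). Ccl2, which attracts monocytes, was not called, with 3.76, 12.4, 0 and 3.04 CPM and 4.65, 7.62, 10.3 and 9.13 CPM (log2 fold change 1.24, SE 0.89, adjusted p = 0.304), although it was with no filter on low counts (adjusted p = 0.00637). Of T cell attractants, Cxcl9 had no count in any of the 8 libraries. Cxcl10 was at 0 to 0.76 CPM in EA1 and 0.335 to 0.882 CPM in EA2, and Ccl5 at 0 to 0.11 CPM and 0.268 to 0.419 CPM, too low to be tested. Cxcl2 and Ccl7, further myeloid attractants, were at 0 to 0.253 and 0.104 to 1.35 CPM in EA1 and at 0 to 0.294 and 0.0895 to 0.49 CPM in EA2, and were not tested either. Cxcl12 lay at 4.07, 3.05, 0 and 5.07 CPM in EA1, with no count in EA2 (at least 40.2-fold higher in EA1 from pooled counts), and was not tested, as it did not pass the filter on low counts.

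Cytokines were called in equal number, 8 of 22 tested higher and 8 lower in EA2 (4 or 5 lower without day 2, 3 or 5, median 0.35). Csf1, the growth factor of macrophages, lay at 61.4, 49.6, 58.3 and 43.1 CPM in EA1 and at 245, 215, 147 and 158 CPM in EA2 (log2 fold change 1.83, SE 0.18, adjusted p = 0.000121). Csf3, that of neutrophils, lay at 0, 0.451, 0.331 and 0.38 CPM and at 5.19, 4.02, 10.5 and 7.12 CPM (log2 fold change 4.49, SE 0.60, adjusted p = 0.00061). Il1rn, the antagonist of the interleukin 1 receptor, lay at 61.0, 61.9, 26.4 and 40.8 CPM and at 0.268, 0.287, 0.098 and 0.754 CPM (log2 fold change -6.95, SE 0.38, adjusted p = 4.66e-06). Both were higher and the antagonist lower in EA2. Csf2, the other colony-stimulating factor tested and named after its values were seen, was not called (mean 17.4 CPM in EA1 and 6.05 CPM in EA2, log2 fold change -0.69, adjusted p = 0.364). Spp1, osteopontin, was very abundant in both, with 5894, 11335, 16315 and 10519 CPM and 2479.7, 2622, 5135 and 3708 CPM (log2 fold change -1.63, SE 0.22, adjusted p = 0.000669). Il1rap, the accessory chain of the interleukin 1 receptor and a member of the NF-kB list, lay at 0.313, 0.677, 0.22 and 0.38 CPM in EA1 and at 26.3, 22.8, 55.7 and 39.6 CPM in EA2 (log2 fold change 6.39, SE 0.40, adjusted p = 9.41e-06). Birc3, an inhibitor of apoptosis that NF-kB induces, lay at 0.104, 0.226, 0 and 1.27 CPM and at 9.84, 9.34, 11.1 and 11.5 CPM (log2 fold change 4.99, SE 0.68, adjusted p = 0.000709). Nfkbia, the feedback inhibitor of NF-kB, was not called, with 29.2, 57.6, 31 and 119.9 CPM and 43.7, 49.0, 62.4 and 46.6 CPM (log2 fold change 0.00, SE 0.35, adjusted p = 0.997). The NF-kB list had 3 of 30 tested higher (5 without day 5) and 8 lower (3 without day 1 or 2, 5 without day 5 and 3 with library size alone, median -0.14). Its shares were 10.0% higher and 26.7% lower, beside 17.6% and 18.6% over all genes.

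Ligands of immune checkpoints were lower in EA2 for 8 of 17 tested (5 without day 2) and higher for 2 (1 without day 1, 3 or 5 or without the day block, median -0.71). With at least 10 counts in every library 5 of 11 were lower and 0 higher, so that both of the higher ones had under 10 counts in at least 1 library. Cd274, which makes PD-L1, was low in both lines, with 0.209, 0, 0.331 and 0.38 CPM in EA1 and 1.61, 1.44, 1.67 and 1.51 CPM in EA2 (log2 fold change 2.75, SE 0.64, adjusted p = 0.0102). Cd80, a ligand of Cd28 and Ctla4, lay at 3.44, 3.84, 10.1 and 6.21 CPM and at 0.0895, 0, 0.49 and 0.167 CPM (log2 fold change -4.95, SE 0.53, adjusted p = 0.000192). Cd276, the B7-H3 ligand, was not called, with 101, 101, 104 and 74.6 CPM and 99.9, 93.5, 108 and 113 CPM (log2 fold change 0.13, SE 0.17, adjusted p = 0.575). Complement genes were higher for 5 of 10 tested (3 without day 5) and lower for 3 (1 without day 2, median 0.22). Clu, clusterin, an inhibitor of complement and a secreted chaperone, lay at 998, 1245, 793 and 895 CPM in EA1 and at 51.1, 43.4, 25.2 and 23.9 CPM in EA2 (log2 fold change -4.83, SE 0.23, adjusted p = 1.92e-06). C3, the central component, was not called, with 3.86, 11.4, 7.82 and 14.1 CPM and 4.38, 8.05, 7.25 and 10.2 CPM (log2 fold change -0.23, SE 0.26, adjusted p = 0.517).

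Markers of other cells were read to see what else a culture could hold. Of 30 leukocyte markers 3 were tested, and Ptprc (CD45), which all leukocytes carry, had no count in EA1 and 0.358, 0.144, 0.196 and 0.0837 CPM in EA2. The tested ones were Mrc1 and Cd14, lower in EA2, and Cd68, higher. The list summed to 208 to 298 CPM in EA1 against 119 to 199.5 CPM in EA2, and 11 of the 30 had no count in any library. Endothelial markers summed to 23.1 to 50.3 CPM in EA1 and 100.7 to 199.0 CPM in EA2, with 3 of 6 tested higher (Flt1, Pecam1 and Plvap) and 1 lower (Cdh5). Most of that sum was Flt1, with means of 25.8 CPM in EA1 and 136 CPM in EA2. Pecam1, which endothelium carries, reached 1.70, 1.29, 3.92 and 1.84 CPM in EA2 and 0.209, 0.226, 0.22 and 0 CPM in EA1 (log2 fold change 3.58, SE 0.64, adjusted p = 0.00284). Of 11 fibroblast genes tested 6 were higher and 4 lower, and the list summed to 208.5 to 597 CPM in EA1 and 219.7 to 284 CPM in EA2. Dcn, decorin, a small proteoglycan of connective tissue, had 2 counts in EA1 and lay at 37.2, 47.3, 53.2 and 39.9 CPM in EA2 (776-fold higher in EA2, 95% interval 214 to 6411, adjusted p = 1.87e-06). Col1a2, a chain of type I collagen, had no count in EA1 and lay at 21.4, 15.7, 14.7 and 15.2 CPM in EA2 (at least 199-fold, adjusted p = 0.00016). Its partner chain Col1a1 was lower in EA2 (-2.17, SE 0.56, adjusted p = 0.0173), so that fibroblast genes did not move as 1 group. Of 9 smooth muscle genes tested 1 was higher, Tpm2, with 1.36, 1.47, 0.331 and 2.15 CPM in EA1 and 226, 224, 183 and 196 CPM in EA2 (log2 fold change 7.34, SE 0.34, adjusted p = 1.92e-06), and 5 were lower (2 without day 1, 2 or 5, and 3 without the day block or with library size alone). What part such cells could have in a comparison was not tested.

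Among the widest gaps with EA2 higher were those of inhibitors of Cdk4 and Cdk6. Cdkn2a at chr4:89274471-89294653, which makes p16 and p19Arf, had no count in EA1 and lay at 513, 656, 733 and 661 CPM in EA2 (at least 7520.5-fold, adjusted p = 6.85e-06). Cdkn2b, its neighbour at chr4:89306299-89311039, which makes p15, had no count in EA1 either and lay at 203, 250.0, 286 and 256 CPM in EA2 (at least 2924-fold, adjusted p = 7.75e-06). Both were read in untreated EA3, at 229.6 to 406 CPM and 95.7 to 203 CPM. Mtap, a coding gene close by at chr4:89137122-89181081, was named after its values were seen and was read in EA1, with 484, 603, 484 and 314 CPM in EA1 and 224, 246, 170.4 and 191 CPM in EA2 (log2 fold change -1.16, SE 0.18, adjusted p = 0.00156). A loss of these genes and a lack of their transcripts in EA1 cannot be told apart from counts. The other genes of the upper end were Twist1, Rgs16, a regulator of G protein signalling, and Arsj, an arylsulfatase. Rgs16 lay at 0, 0, 0 and 0.507 CPM in EA1 and at 205, 219.6, 455 and 369.9 CPM in EA2 (log2 fold change 11.27, SE 0.51, adjusted p = 1.78e-06). Arsj had no count in EA1 and lay at 36.0, 35.9, 26.5 and 38.1 CPM in EA2 (at least 404-fold, adjusted p = 4.49e-05). At the lower end stood Il5ra, the receptor of interleukin 5, with 297, 207, 537 and 252 CPM in EA1 and 1 count in EA2 (13128-fold higher in EA1, 95% interval 2356 to 518555, adjusted p = 8.28e-07). Crisp1, a secreted cysteine-rich protein, lay at 64.4, 94.1, 76.4 and 176 CPM in EA1 with no count in EA2 (at least 1339.9-fold higher in EA1). Rcn1, a calcium-binding protein of the endoplasmic reticulum, lay at 102, 107, 97.9 and 83.8 CPM in EA1 with no count in EA2 (at least 1318-fold). Pxdn, peroxidasin, which crosslinks collagen IV, lay at 242, 191, 127 and 181 CPM in EA1 and had 1 count in EA2 (7493-fold higher in EA1, 95% interval 1344 to 295983, adjusted p = 8.28e-07). In all, 28 genes had no count in EA1 and at least 5 CPM in EA2, and 32 had no count in EA2 and at least 5 CPM in EA1.

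Reads of overlapping genes can weigh on some values, as the strand setting of the counter is not given in the sources used here. Of the genes with values above, Pcdh7, Ccnd1, Bmp5, Ccn2, Fosl1 and Hopx share between 21.1% and 57.2% of their exon bases with a gene on the other strand. Hopx had no count in any of the 8 libraries.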

How the data were processed

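RNA sequencing libraries of untreated EA1 and EA2 cells were analysed. The authors isolated RNA from dishes in 0.1% DMSO, made stranded poly(A) libraries, trimmed reads, aligned them to mm10 with STAR and deposited its counts per gene, raw whole numbers. The strand setting and the annotation release are not given in the sources used here. Of 26 columns in the deposited table, 14 were not used and 4 of EA3 served for values without a test and 1 alternative. Rows named by a bare number (24 rows, 0.147% to 0.17% of a library) were left out. All 55391 symbols matched GENCODE, and 4182 on X or Y were removed before the test.

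Counts were filtered by edgeR's filterByExpr, scaled with TMM (factors 0.886 to 1.084), and fitted by the quasi-likelihood test (edgeR 4.0.16, R 4.3.3, robust) with day and line as terms, leaving 3 residual degrees of freedom. Same-day deviations of the 2 lines correlated at 0.4, 0.101, 0.127 and 0.263, and those of different days at -0.482 to 0.39. The block rests on the labels, which give the day. DESeq2 1.42.0 was an alternative. On simulated data of this comparison, 44 of 97 genes changed 2-fold, 92 of 96 changed 4-fold and 11 of 11550 unchanged genes were called. The simulated data held no difference between days and few changed genes, unlike the real data, so that these rates need not hold there. Members and lists were chosen with earlier results of these data known. Named genes were Trp53, Alk and Eml4, the first 3 members of each list, per list up to 3 called genes in each direction with the largest fold, 1 sign on all 4 days and at least 2 CPM in 1 line, the 5 largest folds in each direction overall (average log2 CPM of at least 3), and 14 genes the study names. Other settings tried were other scaling, filters, no day block, a fold threshold, X and Y genes kept, EA3 in the fit and each day left out. Some listed genes are not reported here.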

Additional observations from a re-analysis of the deposited data

Results flagged for a closer look

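In 13 of 232 groups of 4 libraries looked at (1 gene in 1 line with at least 40 counts), a single library stood apart from the others of its line by a gap past Dixon's 95% critical value for 4 samples. Chance flags about 1 in 20 groups. No cause was tested.

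Of these, 7 stood on day 3. In EA2, Trp53 lay at 51.1 CPM against 76.4 to 81.9 CPM on the other days, Arsj at 26.5 CPM against 35.9 to 38.1 CPM, and Mki67 at 276 CPM against 490.1 to 519.9 CPM. In EA2, Hbegf lay at 295 CPM against 132 to 139 CPM, and Dll4 at 6.37 CPM against 2.59 to 2.93 CPM. In EA1, Itgb4 lay at 327 CPM against 656 to 719.8 CPM, and Smoc2 at 99.0 CPM against 389 to 451 CPM.

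On day 5, Sox2 in EA1 lay at 62.2 CPM against 11.3 to 13.8 CPM, Cd276 in EA1 lay at 74.6 CPM against 100.5 to 103.9 CPM, and Lsr in EA2, a tricellular junction gene of which 44.7% of exon bases overlap genes on the other strand, lay at 1.00 CPM against 1.96 to 2.16 CPM. On day 1, Sdc2 in EA2 lay at 115.0 CPM against 140.5 to 144 CPM, and Col1a2 in EA2 at 21.4 CPM against 14.7 to 15.7 CPM. On day 2, Rfx5 in EA2, a factor of MHC class II promoters, lay at 13.2 CPM against 18.2 to 19.4 CPM, and 26.8% of its exon bases overlap a gene on the other strand.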

How the results depend on the processing

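The number of genes higher in EA2 (2095) and lower in EA2 (2212) stayed within 1.5 times under both DESeq2 choices (2433 and 2289 by its Wald test, 2150 and 2155 with its size factors), library size alone (2726 and 1553), no filter on low counts (2932 and 2668), at least 10 counts in every library (1497 and 1676), X and Y genes kept (2237 and 2274) and EA3 in the fit (2501 and 2552). Asking for a log2 fold change of at least 1 left 1337 and 1234. The day serves as the replicate block, and without it 1832 genes were higher and 2084 lower. Leaving out 1 day at a time gave 1546 to 2129 higher and 1379 to 2201 lower genes, with the fewest in both directions without day 2.

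Of 3135 values of named genes under these settings, 3019 kept their side of the threshold, 106 lost the call, 10 gained one and none reversed. Of 130 of the called genes described above, 118 kept their call under all settings but the fold threshold, which removes called genes under 2-fold by construction, and the minimum of 10 counts, under which genes near 0 in 1 line are not tested. For the 44 list counts of at least 5 genes, 572 values were obtained under other settings, of which 502 stayed within 1.5 times of the main one and 70 did not, 23 of them under that minimum; smaller list counts are not in these numbers. Without the block, the counts of the S and G2/M lists are those given above. Each group is 1 line and each day 1 library, and a gene with a level near the limit of 0.251 to 0.431 CPM in both lines was not tested.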

Other observations

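Processed pseudogenes, copies of spliced transcripts in the genome, were called higher in EA2 far more often than lower. Of 353 tested, 129 were higher, 5 were lower and the others were not called (median log2 fold change of all 353, 1.30). Of the 129, 125 shared at least 20% of their 31-base words with a transcript of a coding gene. Their 98 coding genes that were tested, 24 of them ribosomal protein genes, were higher for 17 and lower for 11 (median -0.01). Gm8730 had a mean of 4.83 CPM in EA1 and 798 CPM in EA2, while Rplp0, a ribosomal protein gene with which it shares 62.8% of these words, had 2910.3 and 1475 CPM. Gm13394, which shares 96.8% with the glycolytic gene Gapdh, had 1.35 and 207 CPM, and Gapdh had 3453 and 1701 CPM (edgeR, adjusted p = 0.0968). Gm6166, which shares 68.6% with Fabp5, had no count in EA1 and 33.3 CPM in EA2, where Fabp5 was higher as well. How reads are shared between such copies and their coding genes cannot be told apart here.

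The difference between the lines was not even along the genome. Among genes with an average log2 CPM of at least 3, the median log2 fold change was -0.35 on chromosome 7, where 6.57% of 670 genes tested were higher and 33.0% lower in EA2, and -0.29 on chromosome 14 (8.73% and 29.2% of 332). On chromosome 8 it was -0.21 and on chromosome 6 -0.17. At the other end stood chromosome 15, with 0.19 (26.9% higher and 11.1% lower of 405), and chromosomes 3 and 16, with 0.17 on either. A cause of these shifts was not tested.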
